A study of Mus musculus with 16 samples.

Results

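The Myc family and its partners were followed through 8 genes, Myc, Mycn, Mycl, Max, Mga, Mxd1, Mxd3 and Mxi1, of 18193 genes named by at least 1 probe set that the platform annotation gives to a single gene. All probe sets given to 1 of these genes alone were taken, which makes 21 of the 45101 probe sets on the array. They comprise 1 probe set each for Myc and Max, 2 for Mxi1, 3 each for Mycn, Mycl, Mxd1 and Mxd3, and 5 for Mga. All 16 arrays carried the same total RNA, from E14tg2a, an established feeder-independent line of mouse embryonic stem cells. In the amplified group (n = 8), RNA diluted to 10 pg, about the content of a single cell, was turned into cDNA and amplified by PCR independently for each array. In the nonamplified group (n = 8), 5 µg of the undiluted RNA was turned into biotinylated cRNA without this PCR amplification. No genotype, treatment or culture condition differed between the groups, so the comparison asks how amplification from a single-cell amount alters the measured level of each gene. The replicates are technical, and p-values measure only the spread between these arrays.

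Myc, Mycn and Mycl are transcription factors with a basic helix-loop-helix leucine zipper. They bind E-box DNA and activate genes of growth and proliferation only as heterodimers with Max. Mxd1, Mxd3 and Mxi1 dimerise with Max too and recruit Sin3 corepressors to the same sites. Mga joins a Max-binding domain to a T-box and serves as a scaffold of a noncanonical Polycomb complex, PRC1.6, that silences germ cell genes in embryonic stem cells. In these cells Myc and Mycn support self-renewal and overlap in function.

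Values are probe set intensities on a linear scale as deposited, and the lowest listed value is 1. Array medians ran from 33.9 to 36.7 in the amplified group and from 49.8 to 53.9 in the nonamplified group. Pearson r between 2 arrays across all probe sets was 0.790 to 0.829 among amplified arrays and 0.972 to 0.985 among nonamplified arrays, as a description of agreement. No pair of arrays held the same values for most probe sets. Of 8 embryonic stem cell markers, all passed the filter on low values, with 3 higher and 3 lower after amplification, and 1 higher and 7 lower under quantile normalization. The summed intensity of these markers was 21754 to 23021 on nonamplified and 28522 to 31715 on amplified arrays. The sum of 8 fibroblast feeder markers was 3238 to 3563 and 4412 to 6207. Of these markers 4 were tested, with 2 higher and 1 lower, and under quantile normalization 0 higher and 1 lower (limma). Vim and Fn1 (1730 and 1441 without amplification), which stem cells can express too, carried most of the sum, and Col1a1 and Col1a2, collagens of fibroblasts, had nonamplified means of 53.0 and 82.0. Col3a1, Thy1, Pdgfrb and S100a4 lay below the filter. The part of this difference in the results below was not tested.

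Of the tested probe sets of the family, 7 were lower and 1 was higher after amplification, and the changes differed between probe sets of one gene. As deposited, the share of lower ones was near that over all tested probe sets, and the share of higher ones was below it. Read at the probe set brightest without amplification, Mga and Max, the obligate partner, fell most (log2 fold changes −2.97 and −2.25). At dimmer probe sets, Mga 1422646_at (−2.55) and Mycn 1425922_a_at (−2.15) fell too. The brightest Mycn probe set did not pass the test, Myc fell to a smaller extent, and 1 probe set of Mxd1 was the single one that rose. Of the 21 probe sets, 17 passed the filter on low values and were tested. Changes were tested with limma on log2(intensity + 16), with Benjamini-Hochberg adjustment over all 27022 tested probe sets and a threshold of 0.05. By this rule 8 of the 17 changed, 7 of them lower and 1 higher, and 9 did not pass. Over all tested probe sets 57.5% changed, 32.8% lower and 24.7% higher, so as deposited the share of lower members was near that of all probe sets. The split moved with the scaling, to 6 lower and 5 higher members after median centring. There, 5477 of all 27022 tested probe sets were lower and 10821 higher. The median log2 fold change of the 17 was −0.28, against −0.17 over all tested probe sets. The groups did not overlap for 6 of the 17, all of them lower after amplification, where 33.6% of all tested probe sets did not overlap and 18.8% did so as lower ones. Mga 1422646_at was the 1 tested probe set whose amplified mean lay below the filter, so its place among the tested ones rests on the nonamplified arrays. Among the 16 with both group means above the filter, 6 were lower and 5 had no overlap. These counts include Mxi1 1425732_a_at, whose amplified mean lay barely above the filter (amplified intensities 26.0 to 45.0, filter 33.7). No shares over all probe sets were computed under this restriction to both group means, so these counts have no background beside them.

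**Figure D1:**
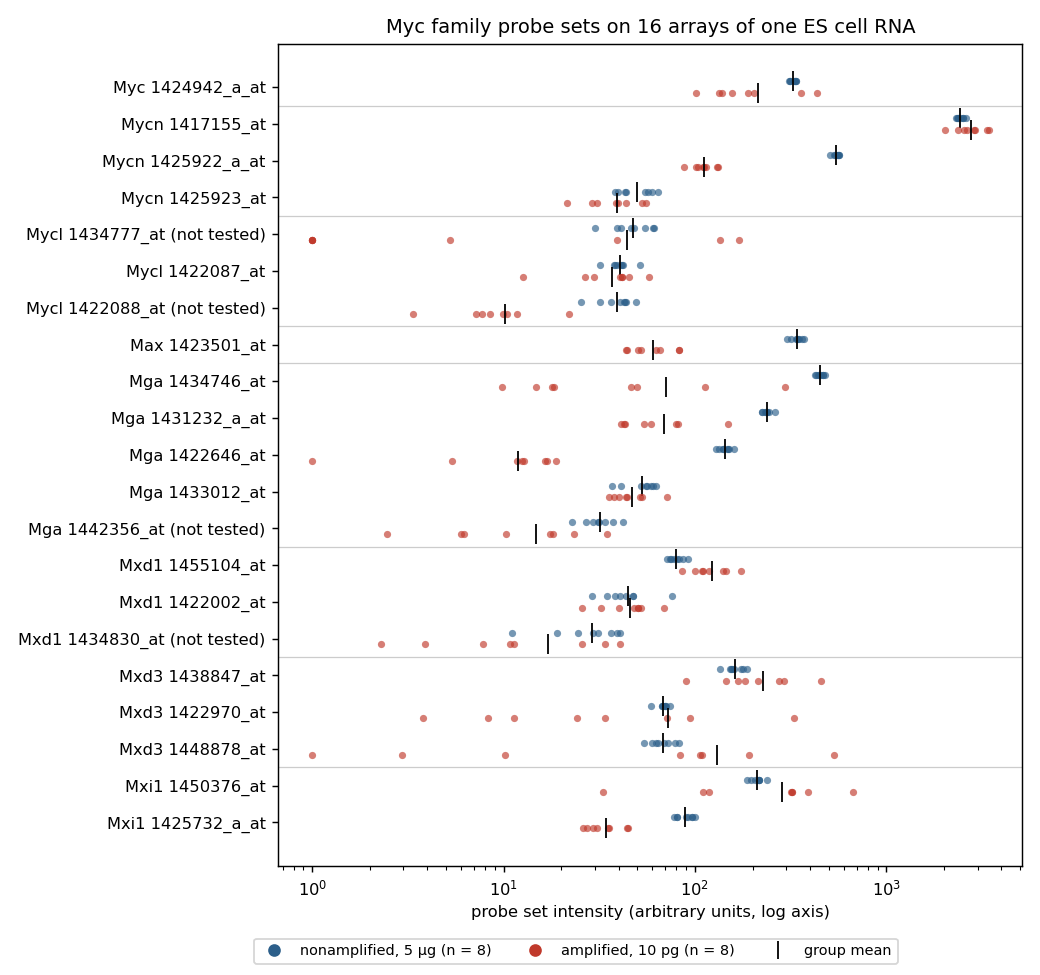
Intensity of each of the 21 probe sets (rows) on every array, on a log axis, for 8 nonamplified (blue) and 8 amplified (red) arrays, with a tick at each group mean. The groups are apart for Max, 3 Mga probe sets, Mycn 1425922_a_at, Mxi1 1425732_a_at and the dim Mycl 1422088_at, and the red points spread widely for Mxd3 1422970_at, from 3.80 to 331.

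Myc, the prototype of the family, was measured by 1 probe set, 1424942_a_at. Its intensity ran from 309.6 over a median of 331 to 338 on nonamplified arrays, and from 101 over 173 to 433 on amplified arrays. On 6 amplified arrays Myc lay below every nonamplified array and on 2 above every one, so the groups were not separated. The means were 325.6 ± 12.04 and 215 ± 119 (SD, n = 8 each), and the log2 fold change was −0.71 (limma SE 0.23, adjusted p = 0.0144). After median centring of the arrays the difference of −0.19 did not pass (limma adjusted p = 0.519), nor did the −0.40 after scaling to the brighter 50% of probe sets (adjusted p = 0.136).

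Mycn, the paralogue with high expression in embryonic stem cells, gave a different answer at each of its probe sets. At 1417155_at, the brightest, nonamplified arrays gave 2304 to 2619.7 with a median of 2417, and amplified arrays 2029 to 3426 with a median of 2769.7. The amplified range enclosed the nonamplified one, with 5 amplified arrays above and 1 below all nonamplified arrays. The means were 2437 ± 106 and 2772 ± 473 (SD, n = 8 each), and the log2 fold change of 0.17 did not pass (95% interval −0.050 to 0.38, limma adjusted p = 0.179). Without amplified replicate 8, the lowest array, it was 0.23 and passed (limma adjusted p = 0.0376). At 1425922_a_at, a probe set built to match several transcripts of the gene, the values fell from 508 to 569 down to 87.7 to 132. All 8 amplified arrays lay below all nonamplified arrays. The means of 548 ± 20.3 and 111 ± 14.8 (SD, n = 8 each) differ 4.92-fold, and the log2 fold change was −2.15 (limma SE 0.081, adjusted p = 9.22e-13). The third probe set, 1425923_at, was dim in both groups, at 49.9 ± 9.88 and 39.0 ± 11.8 (SD, n = 8 each). Its log2 fold change of −0.28 did not pass (95% interval −0.57 to 0.019), except without amplified replicate 2 (−0.34, limma adjusted p = 0.0461) or on the hybridization controls (−0.60, limma adjusted p = 0.00723).

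The direction of the brightest Mycn probe set depended on how the arrays were scaled. It was lower under quantile normalization (−0.68, limma adjusted p = 6.59e-05), and higher after median centring (0.73) or scaling to the brighter 50% (0.50). Scaled on the hybridization controls, spiked bacterial and phage transcripts, it was −0.26 and did not pass. The fall at 1425922_a_at passed under each of these 4 scalings.

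Mycl, the third activator, was dim at all of its probe sets. At 1422087_at, the 1 that was tested, intensities were 32.0 to 52.0 without amplification and 12.6 to 57.9 after it, around medians of 40.1 and 41.0. The log2 fold change of −0.13 did not pass (95% interval −0.47 to 0.20, limma adjusted p = 0.492), except on the hybridization controls (−0.43, adjusted p = 0.0498). Probe set 1434777_at lay at the lowest listed value of 1 on 4 amplified arrays and reached 134 and 169 on replicates 2 and 4, against 30.2 to 61.1 on nonamplified arrays. At 1422088_at the groups did not overlap, with 25.3 to 49.2 without amplification and 3.38 to 22.1 after it, but both ranges lay under the median of their arrays.

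Max was measured by 1 probe set, 1423501_at. Its values were 302 to 373 on nonamplified arrays, with a median of 345, and 43.5 to 82.8 on amplified arrays, with a median of 57.4. The highest amplified array stood far below the lowest nonamplified one. Max fell from 341 ± 22.5 to 60.5 ± 15.7 (SD, n = 8 each), 5.64-fold, and its log2 fold change was −2.25 (limma SE 0.12, adjusted p = 4.95e-11). All 8 amplified values were still above the median of their own array.

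Mga fell at 3 of its 4 tested probe sets. At 1434746_at nonamplified arrays gave 422 to 479, with a median of 449, and amplified arrays 9.84 to 296, with a median of 32.3. The drop varied from array to array. Replicate 6 at 296 and replicate 4 at 113 stood above the others, and 4 of the 8 lay under the median of their array. The means were 450.6 ± 20 and 70.8 ± 97.2 (SD, n = 8 each), and the log2 fold change was −2.97 (limma SE 0.41, adjusted p = 1.02e-05). Mga 1422646_at went from 129 to 161 down to 1 to 18.9, with a log2 fold change of −2.55 (SE 0.13). On 5 of the 8 amplified arrays it was under the 25th percentile of the array and on 0 above its median, so the size of this fall depends on the pseudocount (−3.74 with 1 and −1.46 with 64). Mga 1431232_a_at went from 224 to 261 down to 41.1 to 149 (log2 fold change −1.67, SE 0.18, limma adjusted p = 6.68e-07). In none of these 3 probe sets did the groups overlap. Mga 1433012_at, in contrast, measured 53.0 ± 9.25 and 47.1 ± 11.6 (SD, n = 8 each), and its log2 fold change of −0.14 did not pass (95% interval −0.39 to 0.12). This value was called lower on the hybridization controls (−0.47, limma adjusted p = 0.0301) and higher after median centring (0.29, adjusted p = 0.0487). The fifth probe set, 1442356_at, was below the filter, with 22.8 to 41.9 and 2.47 to 34.6.

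Among the antagonists, Mxd1 rose at its brightest probe set. At 1455104_at nonamplified values were 71.4 to 92.3, with a median of 79.1, and amplified values 85.8 to 174, with a median of 114. On 7 of 8 amplified arrays Mxd1 lay above every nonamplified array. The means were 80.0 ± 7.06 and 123 ± 28.4 (SD, n = 8 each), and the log2 fold change was 0.51 (limma SE 0.12, adjusted p = 0.00128). Scaled on the hybridization controls the rise did not pass (0.14, limma adjusted p = 0.533). Mxd1 1422002_at gave 44.6 ± 14.1 and 46.0 ± 13.2 (SD, n = 8 each), a log2 fold change of 0.031 with a 95% interval of −0.30 to 0.36. It was called higher under quantile normalization (0.43, limma adjusted p = 0.0225) and after median centring (0.44, adjusted p = 0.0210). The remaining probe set, 1434830_at, was below the filter, with 11.04 to 40.6 and 2.28 to 40.8.

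Mxd3, an antagonist expressed in cycling cells, showed no passing change at its 3 probe sets. Among the tested probe sets, 1448878_at and 1422970_at scattered most between amplified arrays (SD of log2 values 1.79 and 1.38). The brightest, 1438847_at, had an SD of 0.66, below the 1.23 of Mga 1434746_at. At 1438847_at the values were 135 to 187 without amplification and 89.7 to 456 after it (log2 fold change 0.33, limma adjusted p = 0.244). Without amplified replicate 8, the lowest array, this was 0.48 and passed (limma adjusted p = 0.0416). Median centring (0.84) and scaling to the brighter 50% (0.63) also made it pass as higher. At 1422970_at nonamplified arrays gave 58.9 to 74.2, and amplified arrays 3.80 to 331, with 5 below and 2 above all nonamplified arrays. The log2 fold change was −0.60 (SE 0.46, limma adjusted p = 0.284), and −0.98 without amplified replicate 2 (limma adjusted p = 0.0144). At 1448878_at the ranges were 54.0 to 82.5 and 1 to 535, with a log2 fold change of −0.085 (95% interval −1.36 to 1.19).

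Mxd3 1422970_at and 1448878_at, which the annotation ties to the same transcript record, moved together between amplified arrays. Both were highest on replicate 2, at 331 and 535, next on replicate 7, at 94.2 and 191, and lowest on replicates 1, 4 and 5, at 3.80 to 11.4 and 1 to 10.2. Over the 8 amplified arrays Pearson r of their log2 values was 0.93 (exact permutation p = 0.000446, adjusted over 23 pairs 0.0103) and Spearman rho 0.90 (exact permutation p = 0.00456, adjusted 0.105). Without the 2 arrays farthest from the median of 1422970_at r was 0.86. Over the 8 nonamplified arrays r was −0.43 (exact permutation p = 0.291, adjusted 0.609). This was the 1 pair among 23 pairs of probe sets of one member gene that passed by Pearson r on amplified arrays, and none passed by rho or on nonamplified arrays. The pairs were correlated after this one had been noticed. Mycn 1425922_a_at and 1425923_at, Mycl 1422087_at and 1422088_at, and Mxd1 1455104_at and 1434830_at are also pairs tied to the same record. Their r on amplified arrays was −0.068, −0.0094 and 0.028. Correlations of Mxd3 1422970_at and 1448878_at with 1438847_at did not pass (r = 0.37 and 0.16, exact permutation p = 0.367 and 0.709). Probe set 1438847_at was also highest on replicate 2, at 456.

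**Figure D2:**
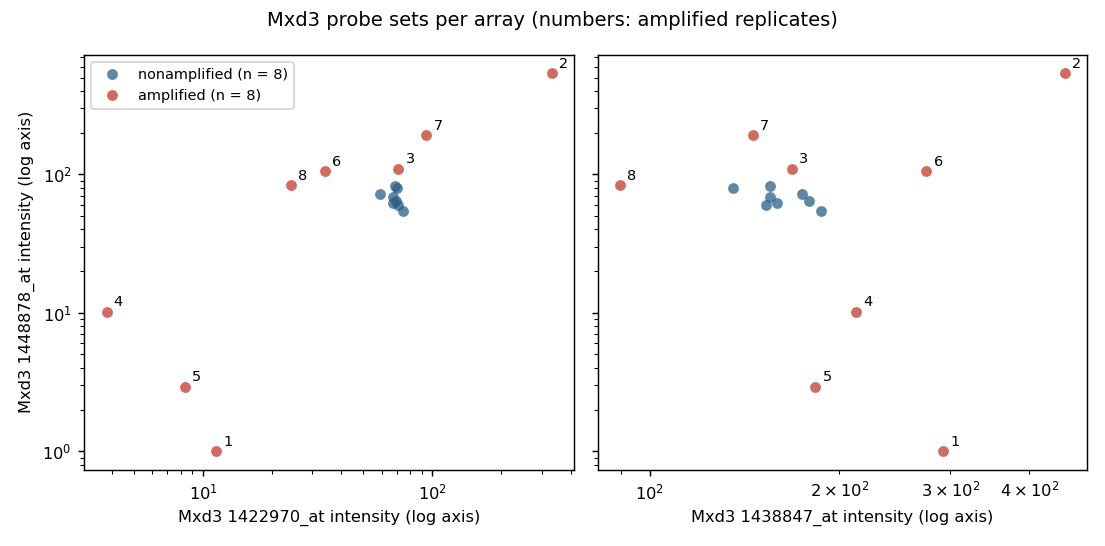
Intensity of Mxd3 1448878_at against 1422970_at (left) and 1438847_at (right) on each array, log axes, with 8 nonamplified arrays in blue and 8 amplified arrays in red, numbered by replicate. On the left the red points run along a diagonal from replicates 1, 4 and 5 to replicate 2, with r = 0.93, while the blue points cluster.

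Mxi1, which like the Mxd proteins recruits Sin3, fell at 1 of its 2 probe sets. At 1425732_a_at values went from 78.2 to 100.2 down to 26.0 to 45.0, without overlap. The log2 fold change was −1.08 (limma SE 0.096, adjusted p = 5.40e-08). At 1450376_at, the brighter one, nonamplified arrays gave 188 to 237 and amplified arrays 32.9 to 671, with 5 above and 3 below every nonamplified array. Its log2 fold change was 0.043, with a 95% interval of −0.83 to 0.92, an interval that reaches close to a 2-fold change on either side.

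**Figure D3:**
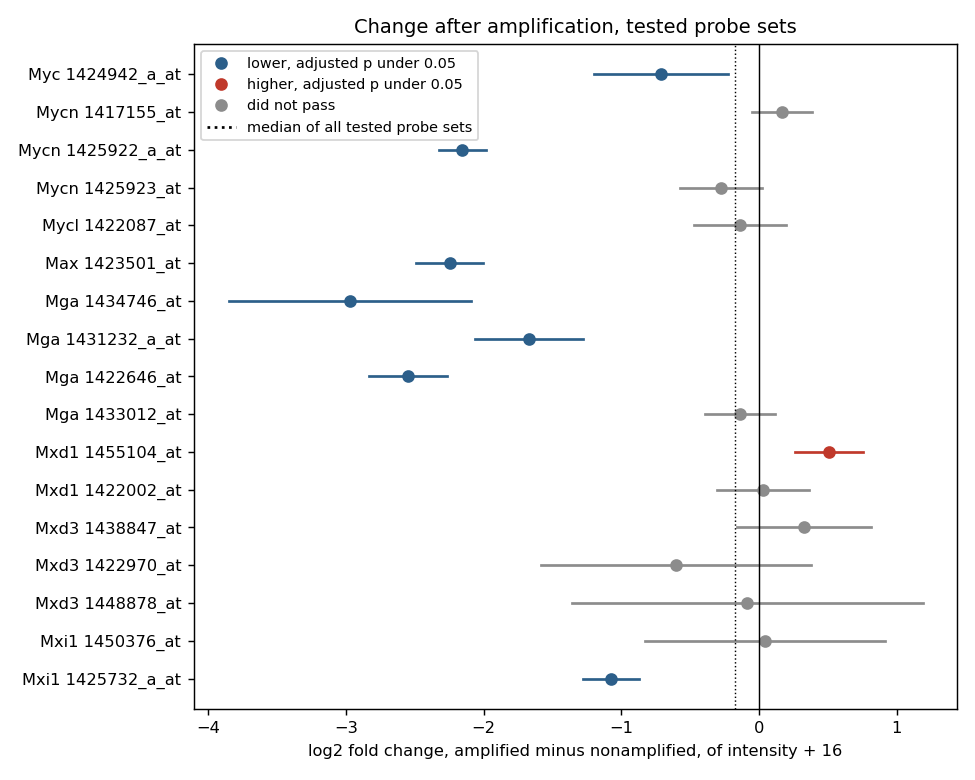
Log2 fold change, amplified minus nonamplified, of intensity + 16 for the 17 tested probe sets, with 95% intervals from limma; blue is lower and red higher at an adjusted p under 0.05, grey did not pass, and the dotted line is the median of all tested probe sets, −0.17. Max, 3 Mga probe sets, Mycn 1425922_a_at and Mxi1 1425732_a_at lie at −1.08 or lower, and Mxd1 1455104_at is the single red point, at 0.51.

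The 6 probe sets without overlap also passed as lower under quantile normalization, after median centring, after scaling to the brighter 50%, and on the hybridization controls. Their log2 fold changes, as deposited, ran from −1.08 to −2.97. Of the other 11 tested probe sets, 10 changed their call or their sign under at least 1 of these 4 scalings, and the remaining one was Mxd3 1422970_at. The median log2 fold change over all tested probe sets moved with the scaling too, from −0.17 as deposited to −0.025 under quantile normalization, 0.30 centred on the median, 0.11 on the brighter 50% and −0.53 on the hybridization controls. The share of calls that were higher over all probe sets went from 43.0% to 50.9%, 66.4%, 57.7% and 23.8%.

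**Figure D4:**
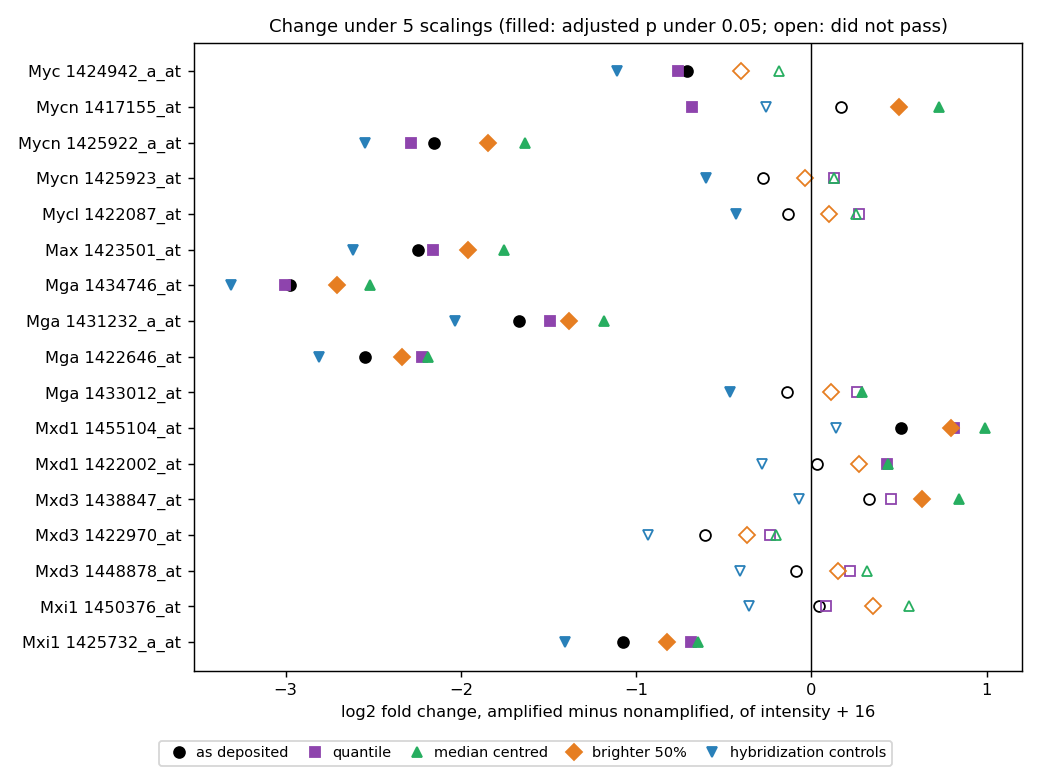
Log2 fold change of the 17 tested probe sets as deposited (black) and under 4 other scalings of the arrays (colours); filled symbols passed at an adjusted p under 0.05 and open ones did not. Symbols of Max, 3 Mga probe sets, Mycn 1425922_a_at and Mxi1 1425732_a_at are filled and left of 0 throughout, whereas Mycn 1417155_at runs from −0.68 to 0.73.

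Because scaling acts on all probe sets of an array, probe sets of one gene were also compared within arrays, as log2(intensity + 16) of one minus that of the probe set brightest without amplification. Of 9 such differences in 5 genes, 6 changed between groups (exact 2-sided permutation test over 12870 regroupings, Benjamini-Hochberg adjusted over the 9). The same test was not run on other genes, so how common such differences are over the whole array is not known here. Mycn 1425922_a_at fell against 1417155_at by 2.32 on the log2 scale (exact permutation adjusted p = 0.000699), with no overlap between groups. Mga 1433012_at rose against 1434746_at by 2.84 with the same adjusted p and no overlap. The raw p of both, 0.000155, is the smallest that these regroupings can give.

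The other 4 passing differences had adjusted p-values between 0.0242 and 0.0308 and were not stable to single arrays. Mga 1431232_a_at rose by 1.30 against 1434746_at, and lost its call without amplified replicate 3 or nonamplified replicate 8 (adjusted p up to 0.0531). Mxi1 1425732_a_at fell by 1.12 against 1450376_at. This call was lost without amplified replicate 1, 2, 3, 4 or 8, or nonamplified replicate 1, 4, 5, 6, 7 or 8 (adjusted p 0.0501 to 0.0793). Mxd1 1422002_at fell by 0.48 against 1455104_at, and lost its call without amplified replicate 3 or 4 or nonamplified replicate 8 (adjusted p up to 0.0531). Mycn 1425923_at fell by 0.44 against 1417155_at, lost its call without amplified replicate 3, 4 or 5 or nonamplified replicate 5, 7 or 8 (adjusted p up to 0.0557), and rose by 0.81 under quantile normalization. Mxd3 1422970_at against 1438847_at did not pass (−0.93, exact permutation adjusted p = 0.0897), except without amplified replicate 2 (−1.15, adjusted p = 0.0373) or 7 (−1.14, adjusted p = 0.0400). Mga 1422646_at against 1434746_at did not pass either (0.43), except without amplified replicate 6 (0.73, adjusted p = 0.0430). Mxd3 1448878_at against 1438847_at had a difference of −0.41 and an adjusted p of 0.538.

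Relative to Max on the same array, 6 of the other 7 genes rose, each through its brightest nonamplified probe set. The rises were 2.76 for Mxd1, 2.57 for Mxd3, 2.41 for Mycn and 1.54 for Myc on the log2 scale, all without overlap between groups (exact permutation adjusted p = 0.000272 over 7 comparisons). Mxi1 rose by 2.29 (adjusted p = 0.00196) and Mycl by 1.44 (adjusted p = 0.00254), both with overlap. The Mycl probe set lay below the filter, and with a pseudocount of 1 its rise was 0.25 and did not pass (exact permutation adjusted p = 0.806). Mga did not pass (−0.73, exact permutation adjusted p = 0.133), except without amplified replicate 6 (−1.06, adjusted p = 0.00824). All 7 comparisons share the values of Max, which had fallen, and show unequal change only. The log2 fold change of Max was −2.25 and the median over all tested probe sets was −0.17. A probe set at that median would therefore rise against Max too, so these rises are not particular to the family. The same comparison was not run over all genes. The choice of probe set matters for Mycn, since 1425922_a_at and Max fell by nearly the same log2 fold change, −2.15 and −2.25.

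**Figure D5:**
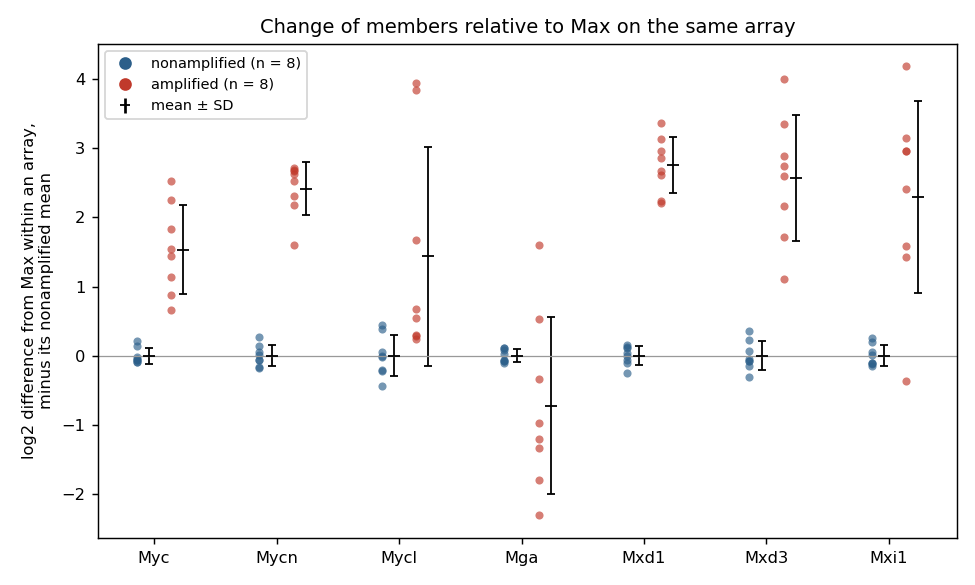
Log2 difference of each gene from Max within an array, after subtraction of the mean of that difference over the nonamplified arrays, for 8 nonamplified (blue) and 8 amplified (red) arrays, with mean ± SD. Amplified arrays lie above all nonamplified ones for Myc, Mycn, Mxd1 and Mxd3, and spread to both sides of 0 for Mga and Mxi1.

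All 17 tested probe sets varied more between amplified than between nonamplified arrays, as 90.4% of all tested probe sets did. The SD of log2 values ranged from 0.17 for Mycn 1425922_a_at to 1.79 for Mxd3 1448878_at among amplified arrays, and from 0.051 for Myc to 0.30 for Mxd1 1422002_at among nonamplified arrays. The medians over the 17 were 0.35 and 0.096, against 0.51 and 0.13 over all tested probe sets. On at least 1 amplified array, 5 of the 17 fell under the 25th percentile of the array.

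Other genes of the network were read at 1 probe set each, that of the highest nonamplified mean. Over all 13438 genes tested this way, 23.1% were higher and 30.3% lower after amplification. Of 5 further Max network genes, 1 was higher, 1 lower and 3 did not pass (median log2 fold change −0.018). Mnt, a Max-binding repressor and antagonist of Myc, rose from 595 ± 55.1 to 1919 ± 495 (SD over 8 arrays; log2 fold change 1.62, limma adjusted p = 8.60e-08). For Mlx, the Max-like partner of the Mondo proteins, the intensities were 232 ± 28.9 and 134 ± 289 (SD, n = 8), and its fall had a log2 fold change of −2.02 (limma adjusted p = 0.00766). The groups overlapped, and the amplified SD exceeded the amplified mean, so not every amplified array showed this fall.

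Cofactors and regulators of Myc stability had 1 higher and 5 lower of 13 tested genes, with a median of −0.60. Kat5, the acetyltransferase Tip60, fell from 304 to 67.0 (log2 fold change −2.32), and Usp28, a deubiquitinase of Myc, rose from 793 to 1320.0 (log2 fold change 0.64, limma adjusted p = 0.0107). Ruvbl2, a helicase-like cofactor, and Huwe1, a ubiquitin ligase of Myc, did not pass (0.12 and −0.60). Under quantile normalization Usp28 did not pass (0.0052) and 0 of the list were higher and 7 lower (limma). Corepressors used by Mxd proteins had 4 higher and 1 lower of 7 tested genes, with a median of 1.03. The 2 Sin3 paralogues went in opposite directions, Sin3b from 709 to 3499 (log2 fold change 2.27) and Sin3a from 519 to 86.6 (log2 fold change −2.57). Rbbp7, a histone-binding chaperone, rose from 2956 to 6106 (log2 fold change 1.03), and Rbbp4, its paralogue, did not pass (−0.11). Quantile normalization gave 3 higher and 3 lower, with Rbbp7 at 0.19 and not passing.

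Subunits of PRC1.6, the complex that Mga scaffolds, had 3 higher and 2 lower of 10 tested genes, with a median of 0.21. Ring1, an E3 ligase subunit, rose from 50.7 to 151 (log2 fold change 1.27) and Cbx1, a heterochromatin protein, from 2656 to 4122 (0.62). Yaf2, a Ring1-binding subunit, fell from 86.9 ± 11.3 to 36.2 ± 59.4 (SD, n = 8 each), with overlap between groups (−1.64, limma adjusted p = 0.00627). The mean of its amplified log2 values lay below the filter, so it was tested only through the nonamplified arrays. Tfdp1, a partner of E2F factors, did not pass (−0.22). Quantile normalization gave 2 higher and 5 lower, and there Cbx1 was lower (−0.24). Of 10 germ cell genes repressed by Mga, 5 passed the filter and 2 of these were higher, but the filter shaped this count. Tex101, a germ cell surface glycoprotein, went from 17.03 to 248 (log2 fold change 3.02) and passed the filter only through the amplified arrays. Stk31, at 90.0 without and 6.62 with amplification, and Slc25a31, at 43.7 and 7.30, were left untested by it, although their groups did not overlap. These 2 were chosen after their values were seen. Taf7l, a germ cell paralogue of a TFIID subunit, rose by 0.26, and Sycp3, of the synaptonemal complex, and Mael, of the piRNA pathway, did not pass (0.46 and 0.25).

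Established Myc target genes had 9 higher and 13 lower of 27 tested genes, with a median of −0.28. Nop58, a nucleolar protein, went from 2329.7 to 23.5 (log2 fold change −5.94), where the amplified mean lay below the filter, so it was tested only through the nonamplified arrays. Hspe1, a mitochondrial chaperonin, rose from 3147 to 7059 (log2 fold change 1.16). Npm1, nucleophosmin, had intensities of 8047 ± 203 and 3195 ± 396 (SD, n = 8) and fell by 1.34 on the log2 scale. Ldha, lactate dehydrogenase, rose by 0.17 as deposited but was lower under quantile normalization (−0.49). The balance of this list rested on the scaling and on the probe set. Under quantile normalization 2 were higher and 20 lower, and when each gene was read at the probe set brightest over all 16 arrays, 11 were higher and 9 lower, of 28.

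By Pearson r of log2 values over the 16 arrays, the genes most alike to Mga 1434746_at, the called member with the most negative log2 fold change at a pseudocount of 16, were Proser2, Art3 and Zfp408 (r = 0.980, 0.979 and 0.973, of 13438 genes). Their log2 fold changes were −2.05, −1.15 and −2.37. Those most alike to Mxd1 1455104_at were Rab11a, Tnfsf13b and 4933406F09Rik (r = 0.966, 0.948 and 0.934), with log2 fold changes of 1.65, 0.50 and 0.40. All arrays carry the same RNA, and the difference between groups is shared by all points, so these coefficients describe measurement and say nothing of regulation.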

How the data were processed

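Total RNA was purified on silica columns, and the one-cycle assay of Affymetrix gave biotinylated cRNA, per the labels' protocols. The deposited table holds 1 linear intensity per probe set and array. How the authors summarised probes and scaled arrays is not given in the sources used here, so values were used as deposited. Gene names came from the platform annotation, updated through the mouse RefSeq table of GRCm38.p6. Of 34945 probe sets with 1 gene, 34741 matched it, 932 had several genes and 9211 had none here. Control probe sets (64) were not tested. Probe sequences and gene positions were not used here.

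Values were log2(intensity + 16), so fold changes of dim probe sets are understated. Probe sets were tested where their mean log2 value over the 16 arrays exceeded the 40th percentile (an intensity of 33.7), by limma (version 3.58.1, R 4.3.3; functions lmFit and eBayes), 2-sided, with no covariate. In simulated data for this comparison, run on 27022 probe sets, the fit was checked for direction and recovery. Within-array differences and correlations used exact permutation tests in Python 3.11.15, and figures matplotlib 3.10.9. The number of arrays limits precision, and no scan date or slide was used.

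The members, lists and tests were chosen with earlier results of these data known. Named list genes were the 2 of the highest nonamplified mean and the called ones with the largest log2 fold change in each direction, and for 1 member per direction the 3 most alike genes were named. Alternatives were pseudocounts of 1 and 64, 4 scalings, no filter or a 60th percentile filter, probe set types, weights, a robust trend, the replicate number as a block, and leaving out each array.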

Additional observations from a re-analysis of the deposited data

Results flagged for a closer look

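In 8 of 42 sets of 8 arrays (21 probe sets in 2 groups), 1 array stood apart from the other 7 by more than Dixon's 95% limit for the share of the range. About 1 in 20 sets of normally distributed values would pass this limit. The shares were taken on linear intensities, not on the log2 values of the tests, so that rate need not hold here. No share over all probe sets was computed, and an excess over chance was not tested. Amplified replicate 2 was highest for Mxd3 1422970_at (331, others up to 94.2) and 1448878_at (535, others up to 191). Amplified replicate 8 was highest for Mga 1431232_a_at (149, others up to 82.0) and 1433012_at (71.7, others up to 52.7). Amplified replicate 6 was highest for Mga 1434746_at (296, others up to 113), and amplified replicate 3 for Mycl 1422088_at (22.1, others up to 11.8). On nonamplified arrays, replicate 3 was highest for Mxd1 1422002_at (75.9, others up to 47.5), and replicate 6 was lowest for Mxd3 1422970_at (58.9, others from 67.2).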

How the results depend on the processing

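The count of lower member probe sets, 7 of 17, stayed within 1.5 times under the alternatives run. It was 8 under quantile normalization, 6 after median centring, 6 on the brighter 50% and 10 on the hybridization controls. Over all 27022 tested probe sets, 8866 were lower as deposited, and 8003, 5477, 6653 and 11964 under these scalings. With the 60th percentile filter, 5 of 10 members and 5266 of 18015 probe sets were lower. With single arrays left out, lower members numbered 7 to 9 (9 without amplified replicate 2). The count of higher ones, 1, became 2 under quantile normalization, 5 with arrays centred on the median, 3 on the brighter 50%, 0 on the hybridization controls, and 1 to 3 with single arrays left out (3 without amplified replicate 8). Over all genes 10148 probe sets were called with the 60th percentile filter, under which only 18015 are tested. The sign turned under quantile normalization for Mycn 1417155_at (−0.68) and 1425923_at (0.13), Mycl 1422087_at (0.27), Mga 1433012_at (0.26) and Mxd3 1448878_at (0.22). It turned with arrays centred on the median for Mycn 1425923_at (0.13), Mycl 1422087_at (0.26), Mga 1433012_at (0.29, called) and Mxd3 1448878_at (0.32). On the brighter 50% it turned for Mycl 1422087_at (0.098), Mga 1433012_at (0.11) and Mxd3 1448878_at (0.15). On the hybridization controls it turned for Mycn 1417155_at (−0.26), Mxd1 1422002_at (−0.28), Mxd3 1438847_at (−0.069) and Mxi1 1450376_at (−0.36). It also turned for Mxd3 1448878_at with a pseudocount of 64 (0.16) and Mxi1 1450376_at with a pseudocount of 1 (−0.0036). With single arrays left out, Mxd1 1422002_at ran from −0.038 to 0.12, Mxd3 1448878_at from −0.49 to 0.23 and Mxi1 1450376_at from −0.18 to 0.37. Except for these scalings and pseudocounts, the cause was not tested.

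Within arrays, Mga 1422646_at minus 1434746_at was −0.20 with a pseudocount of 1 and 0.70 (passing) with 64, and Mycl against Max was 0.25 with 1. Under quantile normalization Mycn 1425923_at minus 1417155_at turned to 0.81, and Mxd1 1422002_at minus 1455104_at (−0.39) and Mxi1 1425732_a_at minus 1450376_at (−0.77) did not pass. With single arrays left out the ranges were −0.52 to −0.36 for Mycn 1425923_at, 0.98 to 1.603 for Mga 1431232_a_at, 0.24 to 0.73 for Mga 1422646_at, −0.57 to −0.36 for Mxd1 1422002_at, −1.15 to −0.71 for Mxd3 1422970_at, −1.45 to −0.91 for Mxi1 1425732_a_at and −1.06 to −0.50 for Mga against Max. Replicate numbers did not pair the arrays (correlations of deviations −0.0078 to 0.018). In limma's fit with the replicate block, calls numbered 14856 over all genes and 7 lower and 1 higher among members. In the paired exact test the differences of −0.44 (Mycn 1425923_at), 1.30 (Mga 1431232_a_at), −0.48 (Mxd1 1422002_at) and −1.12 (Mxi1 1425732_a_at) did not pass (adjusted p = 0.0820). Under quantile normalization, lists gave 0 higher Myc cofactors (3 with the probe set of the highest mean over 16 arrays), 3 lower corepressors, 5 lower PRC1.6 subunits, and 2 higher and 20 lower Myc targets. Without a filter 9 of 21 member probe sets were lower and 1 higher, beside 13996 lower and 8569 higher of all 45037.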
